A study of Mus musculus with 335 samples.

Results

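Acta2-high and Acta2-low cells were compared within the sorted mesenchymal cells of the mouse aorta-gonad-mesonephros (AGM) region. Cells labelled Mesenchymal were chosen by their own measured Acta2 level, in CPM (the count of a gene over the cell's total, times 1000000). Acta2-high cells had at least 100 CPM and Acta2-low cells fewer than 10 CPM. The rule gave 33 Acta2-high and 39 Acta2-low cells, with 16 cells between the thresholds, of 88 mesenchymal cells and 335 cells in all. Since Acta2 chose the cells, its values are a description, and Acta2 is not counted among the genes compared between the classes.

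All cells came from wild-type embryos at E11.5, were freed with collagenase, sorted singly and sequenced as full-length libraries (Smart-seq2). The mesenchymal gate took Pdgfrb+ Ngfr- cells ventral to the aorta, and the submitters name them subaortic mesenchyme. The other sorted cells of the study were 65 HSC, 93 Dorsal and 89 Ventral cells. The mesenchymal cells were sequenced in 1 pool. No animal or embryo is given for them, so they count as 1 sample. No p-value or standard error was therefore computed. Limits below are exact 95% limits. Those of summed levels cover counting error only, and those of shares cover the drawing of cells as if independent. Neither covers differences between embryos.

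Acta2 encodes the actin of smooth muscle, and its protein is the classical mark of the mural cells that wrap arteries. In smooth muscle, actin filaments, tropomyosins, calponin and transgelin work with a myosin motor, and serum response factor (SRF) with its coactivator myocardin switches many of their genes on through DNA elements named CArG boxes. Mural cells include contractile smooth muscle and pericytes, and Notch signals from the endothelium are known to promote their differentiation. In the AGM the mesenchyme under the aorta lies beside the wall from which haematopoietic stem cells arise.

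Both classes were of like depth. Acta2-high cells had a median total of 512827 counts with 6867 genes detected, and Acta2-low cells one of 518336 counts with 6692 genes, with ranges of 126979 to 4315617 counts in Acta2-high and 138032 to 6200804 counts in Acta2-low cells. The median share of mitochondrial transcripts was 5.28% in Acta2-high and 5.34% in Acta2-low cells. The deepest cell held 16.1% of the summed counts of the Acta2-high class and 18.2% of those of the Acta2-low class, so each summed value was also computed with cells weighted equally. The classes were unevenly spread over the well indices. Wells of 1 of the 8 i5 indices held 9 Acta2-high and 1 Acta2-low cells, and wells of another held 0 and 8. Col3a1, a fibrillar collagen, had at least 5 counts in all 33 Acta2-high and all 39 Acta2-low cells. The endothelial marker Pecam1 did so too, in 100% of both classes, so presence in every cell does not single out mesenchyme. Ngfr, which the sort selected against, had a median of 0 in both classes. Pdgfrb, a gene of the sort, had a median of 173 CPM in Acta2-high and 66.6 CPM in Acta2-low cells. Pdgfra, a receptor of fibroblast-like mesenchyme, had medians of 52.5 CPM in Acta2-high and 127 CPM in Acta2-low cells.

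Acta2 (GRCm38 chromosome 19, 34241090 to 34255590, minus strand) ranged in Acta2-high cells from 106 to 12497 CPM with a median of 2567. In Acta2-low cells it ranged from 0 to 9.41 CPM with a median of 4.41, a median of 1.9 counts, and it was 0 in 4 cells. Next to the upper threshold stood a cell at 106 CPM inside and a cell at 63.1 CPM outside, and next to the lower one a cell at 9.41 CPM inside and a cell at 10.8 CPM outside. The Acta2-high class was not even: 26 cells had at least 1000 CPM and 7 cells lay below, and no cell lay between 419 and 1027 CPM. In the Acta2-low cells the few Acta2 counts followed those of the wells that shared an index with them (Spearman's rho 0.65 over 39 cells), at a median of 0.0275% of the neighbours' counts, and also followed the cell's total (0.58). In Acta2-high cells the first rho was 0.1 over 33 cells. Whether the Acta2 counts of the low cells came from neighbouring wells was not tested.

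**Figure D1:**
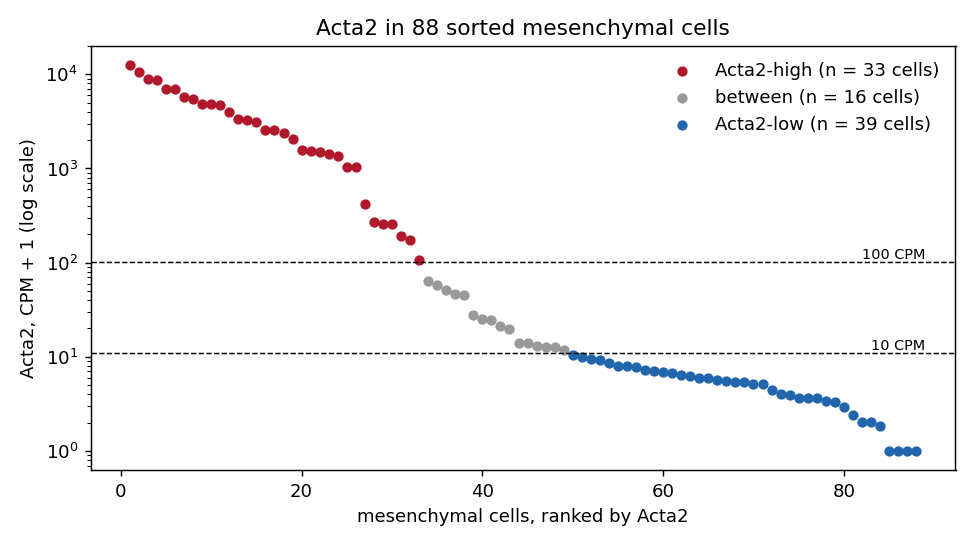
Acta2 in each of the 88 mesenchymal cells, ranked from high to low, as CPM + 1 on a log scale; dashed lines mark the thresholds of 100 and 10 CPM. The 33 Acta2-high cells span 106 to 12497 CPM and the 39 Acta2-low cells 0 to 9.41 CPM, with an empty stretch between 419 and 1027 CPM.

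A gene was counted as higher or lower when its CPM + 1 differed at least 2-fold both by summed counts and with cells weighted equally, among 11377 genes with at least 100 counts over both classes. By this rule 774 genes were higher in Acta2-high cells (6.80%) and 797 lower (7.01%). Each count of a gene list or marker set below is to be read against these shares, unless another setting is named. A level at which a gene stood is its summed CPM over a class unless called a median. The median log2 ratio over all measured genes was -0.07 by summed counts and -0.02 with equal weights. None of these genes separated the classes completely: the highest cell of the class with less always reached at least the lowest cell of the other.

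The contractile genes were the group with the most members higher. Of 30 genes listed 27 were measured; 15 were higher in Acta2-high cells and 0 lower, 55.6% against the 6.80% of all genes, with a median log2 ratio of 1.45. The strongest were Actg2, Cnn1, Myh11 and Tagln, all genes of the differentiated smooth muscle cell.

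Tagln (transgelin, chromosome 9, 45929619 to 45936058, minus strand) had a lowest, median and highest value of 0, 337 and 4411 CPM in Acta2-high cells, against 0, 3.42 and 309 CPM in Acta2-low cells. Its summed level was 561 CPM (552 to 570) against 57.1 CPM (54.6 to 59.7), a log2 ratio of 3.27. No Acta2-low cell reached the median of the Acta2-high cells, though 16 Acta2-low cells had at least 5 counts. Cnn1 (calponin, chromosome 9, 22099216 to 22109630, plus strand), which binds actin and damps the myosin motor, ran from 0 over a median of 51.5 to 753 CPM in Acta2-high cells, against 0, 0 and 63.2 CPM in Acta2-low cells. Its summed level was 203 CPM (198 to 208.5) against 1.956 CPM (1.515 to 2.485), a log2 ratio of 6.11, and 1 cell held 90.01% of the Acta2-low counts. The classes overlapped because 10 Acta2-high cells had fewer than 5 Cnn1 counts and 2 Acta2-low cells had at least 5. Myh11, the smooth muscle myosin heavy chain, was rarer. It had at least 5 counts in 11 Acta2-high and 1 Acta2-low cells, with summed levels of 20.04 CPM in Acta2-high and 0.155 CPM in Acta2-low cells, and a median of 0 in both classes.

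Myl9, a regulatory light chain of myosin, was present in nearly every cell and differed in level. It ran from 32.6 over a median of 918 to 2901 CPM in Acta2-high cells, against 0, 132 and 852 CPM in Acta2-low cells, with a log2 ratio of 2.37. Of the Acta2-high cells 17 lay above every Acta2-low cell. Tpm2, a tropomyosin of the actin filament, had medians of 208 CPM in Acta2-high and 45.2 CPM in Acta2-low cells and a log2 ratio of 2.63, and Tpm1, another tropomyosin, had medians of 1393 CPM in Acta2-high and 666 CPM in Acta2-low cells and a log2 ratio of 1.05. Genes that anchor filaments were higher too. Vcl (vinculin, of focal adhesions) had summed levels of 147 CPM in Acta2-high and 41.01 CPM in Acta2-low cells, Csrp1 (a LIM protein of the filaments) 196 CPM in Acta2-high and 70.8 CPM in Acta2-low cells, Pdlim7 369 CPM in Acta2-high and 149 CPM in Acta2-low cells, and Smtn (smoothelin) 59.1 CPM in Acta2-high and 10.7 CPM in Acta2-low cells. Lmod1, which nucleates actin in smooth muscle, had 9.79 CPM in Acta2-high and 0.216 CPM in Acta2-low cells. Crip1, Pdlim3 and Actn1 completed the 15. In the 12 other contractile genes the log2 ratio ran from -0.57 for Ppp1r12b, over 0.11 for Flna, 0.16 for Des (-0.63 without the deepest Acta2-high cell), 0.20 for Mylk and 0.22 for Cald1 (0.97 without the deepest Acta2-low cell), to 2.38 for Ppp1r14a, which was under 2-fold with equal weights and 0.89 without the deepest Acta2-high cell.

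These contractile genes are set beside the sequence upstream of their starts, since the CArG box is the element that SRF binds. The 250 bases before the start are from RefSeq (GRCm38.p6), written in the direction of transcription. For Acta2 the RefSeq start lies inside the gene position given above, which is from GENCODE, and so do the marked boxes. Capitals mark a CArG box, or in Acta2 a CArG-like box, in which 1 base of the A and T core is replaced. Acta2 (chr19:34255374-34255623, minus strand) is shown because it defined the classes, and holds 2 CArG-like boxes, from 84 and 34 bases before the start. Myl9 (chr2:156775214-156775463, plus strand) and Vcl (chr14:20929148-20929397, plus strand) are shown because they are the members higher in Acta2-high cells that hold a full CArG box, from 161 and 227 bases before the start.
Acta2: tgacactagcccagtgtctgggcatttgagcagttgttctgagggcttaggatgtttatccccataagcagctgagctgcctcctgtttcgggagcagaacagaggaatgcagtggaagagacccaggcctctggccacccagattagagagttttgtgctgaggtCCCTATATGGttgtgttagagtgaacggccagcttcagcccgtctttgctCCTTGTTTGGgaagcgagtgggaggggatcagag
Myl9: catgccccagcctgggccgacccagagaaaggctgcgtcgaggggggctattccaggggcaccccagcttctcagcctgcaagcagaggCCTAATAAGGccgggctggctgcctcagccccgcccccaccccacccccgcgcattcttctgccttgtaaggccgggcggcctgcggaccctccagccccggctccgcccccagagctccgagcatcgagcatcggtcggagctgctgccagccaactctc
Vcl: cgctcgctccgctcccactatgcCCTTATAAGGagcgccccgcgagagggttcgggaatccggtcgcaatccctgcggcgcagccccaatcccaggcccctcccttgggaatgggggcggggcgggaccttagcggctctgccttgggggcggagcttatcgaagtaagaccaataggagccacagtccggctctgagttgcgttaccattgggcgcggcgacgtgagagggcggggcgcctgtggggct

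Windows from 250 bases before to 50 bases after the start were searched on both strands, and 23 of the 27 measured contractile genes had one. A CArG box was found for 4 of them (Cnn2, Myl9, Myl6 and Vcl), against 1.81% of 27025 genes, and a CArG-like box, full boxes included, for 6 of 23 against 11.3%. Of the members that were higher, 12 had a window, and 2 of these held the full box and 4 the CArG-like one. A match is a description of letters in this window, not of binding, and the motifs were chosen after the values had been seen. A further pair of motifs was searched in the same way: the RBPJ motif TGGGAA, of the Notch pathway, in 2 of 7 Notch genes with a window against 28.3% of genes, and the DR5 retinoic acid response element in 2 of 12 retinoid genes against 0.115%. Among members counted as higher or lower, 1 of 3 Notch genes with a window (Hey2) and 1 of 5 retinoid genes (Cyp26a1) held the motif. The other retinoid gene with the element, Rarb, was counted as neither.

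**Figure D2:**
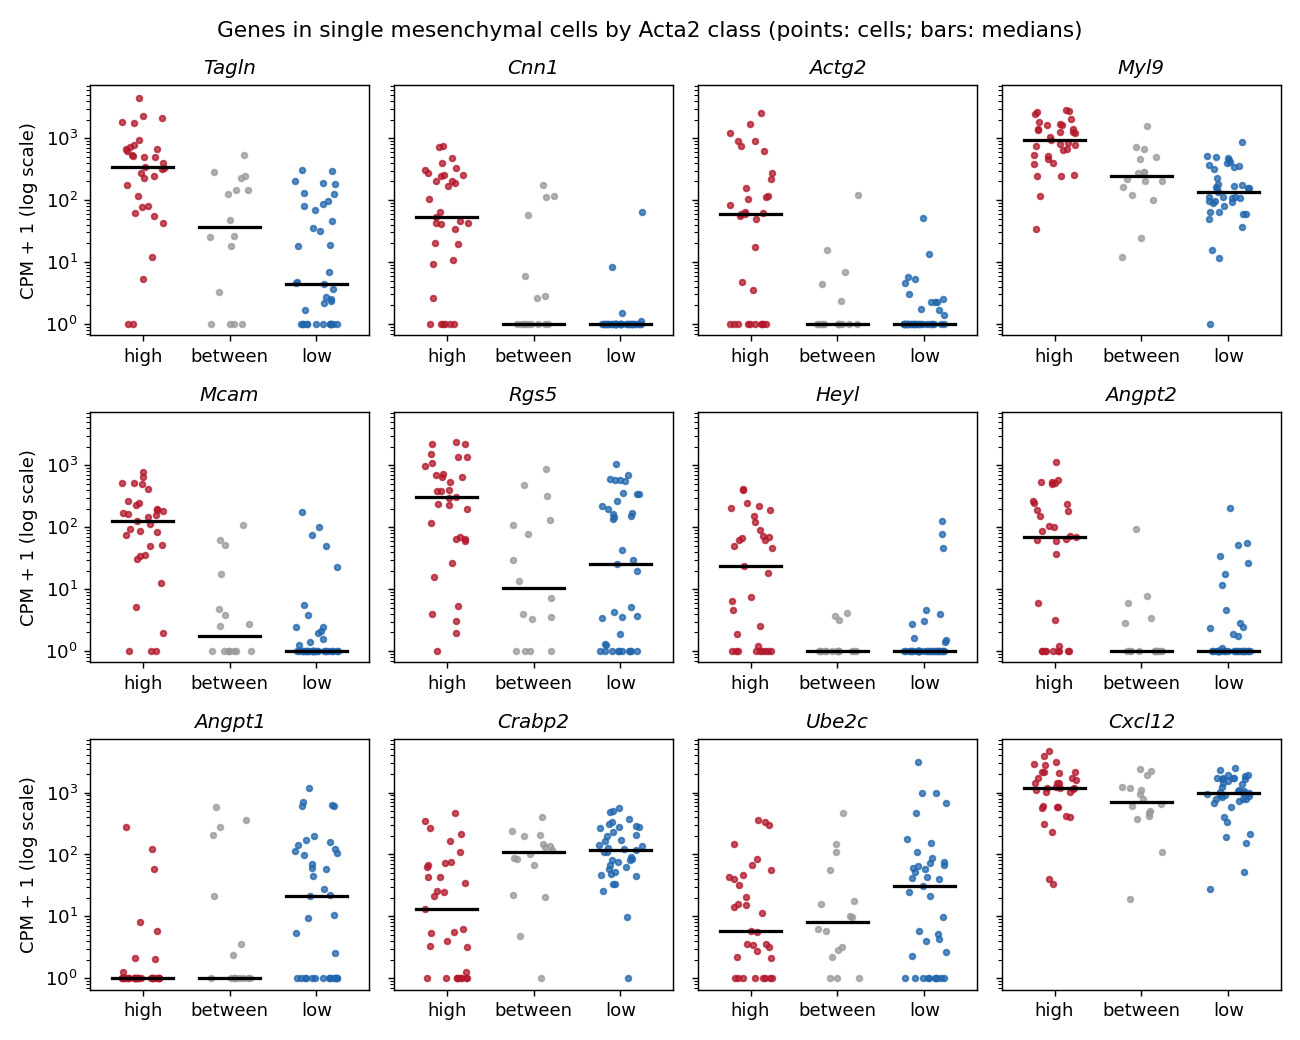
CPM + 1 (log scale) of 12 genes in single cells, by Acta2 class (33 Acta2-high, 16 between, 39 Acta2-low cells); points are cells and bars medians. Tagln, Cnn1, Actg2, Myl9, Mcam, Heyl and Angpt2 lie higher in Acta2-high cells, Angpt1 and Crabp2 higher in Acta2-low cells, and Cxcl12 has medians of 1190 CPM in Acta2-high and 993 CPM in Acta2-low cells.

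Actg2 (gamma smooth muscle actin, chromosome 6, 83512905 to 83536265, minus strand) showed the largest log2 ratio of the contractile list. It ran from 0 over a median of 59.1 to 2557 CPM in Acta2-high cells, against 0, 0 and 49.6 CPM in Acta2-low cells, with summed levels of 277 CPM in Acta2-high and 1.20 CPM in Acta2-low cells and a log2 ratio of 6.98. Per 1000 Acta2 counts, Acta2-high cells held from 0 to 367 Actg2 counts with a median of 20.7, and 10 cells held none. The sarcomeric actins were patchier: Acta1 had at least 5 counts in 10 Acta2-high and 0 Acta2-low cells and summed levels of 24.2 CPM in Acta2-high and 0.0981 CPM in Acta2-low cells. Without the cells that held markers of another type its log2 ratio was 2.04 by summed counts and no longer passed with equal weights. Actc1 had at least 5 counts in 12 Acta2-high and 11 Acta2-low cells, with 64.1% of the Acta2-high counts in 1 cell, and its log2 ratio of 2.62 was 1.40 without the deepest Acta2-high cell. The actin genes resemble each other closely, and kallisto shares ambiguous reads among similar transcripts, so these 3 values are uncertain. Of the 4 actins outside smooth muscle 2 were higher and 0 lower. The cytoplasmic actin Actb, at 11544 CPM in Acta2-high and 9067 CPM in Acta2-low cells, was counted as neither. Of 20 other measured regulators of the actin skeleton 5 were higher and 0 lower, namely Myh9 (a non-muscle myosin, 112 CPM in Acta2-high and 31.8 CPM in Acta2-low cells), the LIM proteins Fhl1 (157 CPM in Acta2-high and 32.6 CPM in Acta2-low cells) and Fhl2 (135 CPM in Acta2-high and 49.7 CPM in Acta2-low cells), Ctgf (61.4 CPM in Acta2-high and 26.4 CPM in Acta2-low cells, a matrix-associated growth factor, with a log2 ratio of 1.19 that was 2.15 without the deepest Acta2-low cell) and Ankrd1, which held 97.6% of its Acta2-high counts in 1 cell.

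Among transcription factors and cofactors linked to smooth muscle, 6 of 26 measured were higher and 3 lower. Against the 5 Acta2-low cells under 1 CPM of Acta2 the counts were 11 and 5 of 24, where 25.6% of all genes were higher and 9.44% lower. Myocd (myocardin) had at least 5 counts in 12 Acta2-high and 5 Acta2-low cells, with summed levels of 32.2 CPM (30.1 to 34.4) and 14.6 CPM (13.3 to 15.9) and a log2 ratio of 1.09. Srf, by contrast, stood at 14.5 CPM (13.09 to 16.01) in Acta2-high and 13.15 CPM (11.96 to 14.42) in Acta2-low cells, with at least 5 counts in 12 Acta2-high and 13 Acta2-low cells. Its log2 ratio was 0.13. Foxs1, a forkhead factor of perivascular cells, had at least 5 counts in 7 Acta2-high and 1 Acta2-low cells, and Mef2c, a MADS-box factor like Srf, had summed levels of 108 CPM in Acta2-high and 26.85 CPM in Acta2-low cells. Klf4, which represses contractile genes, was counted as higher although it had at least 5 counts in 3 Acta2-high and 4 Acta2-low cells. One cell held 82.5% of the Acta2-high counts of Klf4, whose log2 ratio was 1.25. That ratio was -0.98 among wells of balanced i5 index, meaning an index with at least 3 cells of each class. It was -0.03 without the wells that share an index with the cell of most Acta2 counts. The factors lower in Acta2-high cells were Tbx18, Tbx3 and Gata4. Tbx18, a T-box factor of mural and mesenchymal progenitors, ran from 0 over a median of 2.24 to 415 CPM in Acta2-high cells, against 0, 53.6 and 889 CPM in Acta2-low cells, with a log2 ratio of -1.17. Gata4, a factor of coelomic and gonadal mesenchyme, had at least 5 counts in 3 Acta2-high and 11 Acta2-low cells and summed levels of 1.36 CPM in Acta2-high and 27.2 CPM in Acta2-low cells.

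Of 13 measured pericyte genes 7 were higher and 1 lower in Acta2-high cells, with a median log2 ratio of 1.35. Among wells with i5 indices that held at least 3 cells of each class (16 Acta2-high and 19 Acta2-low cells), 4 of 11 were higher, where 9.52% of all genes were. Mcam (CD146, chromosome 9, 44134469 to 44142727, plus strand), an adhesion molecule of mural and endothelial cells, ran from 0 over a median of 126 to 768 CPM in Acta2-high cells, against 0, 0 and 174 CPM in Acta2-low cells. Its summed levels were 169 CPM (164 to 174) and 12.1 CPM (10.97 to 13.3), a log2 ratio of 3.70, and 1 Acta2-low cell lay above the Acta2-high median. Rgs5, a brake on G-protein signals in pericytes, was less exclusive, with medians of 310 CPM in Acta2-high and 24.8 CPM in Acta2-low cells and at least 5 counts in 27 Acta2-high and 20 Acta2-low cells. Cspg4 (NG2 proteoglycan) had summed levels of 77.8 CPM in Acta2-high and 7.17 CPM in Acta2-low cells. Kcnj8 and Abcc9, which form the ATP-sensitive potassium channel of mural cells, had at least 5 counts in 7 and 6 Acta2-high cells and in 3 and 3 Acta2-low cells. The log2 ratio of Kcnj8, 2.96, was 1.91 without the deepest Acta2-high cell, and that of Abcc9 was 3.22. Notch3, the mural Notch receptor, stood at 93.5 CPM in Acta2-high and 47.1 CPM in Acta2-low cells and was counted as neither, and Ebf2 was lower at 1.95 CPM in Acta2-high and 26.1 CPM in Acta2-low cells.

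Genes of the cyclic GMP pathway, by which nitric oxide relaxes smooth muscle, were among 14 measured genes of channels and calcium handling, of which 5 were higher and 1 lower (3 and 0 with a pseudocount of 10 CPM, where 1.81% and 1.29% of all genes were). Prkg1, the cyclic GMP-dependent kinase, had at least 5 counts in 17 Acta2-high and 3 Acta2-low cells and summed levels of 33.5 CPM in Acta2-high and 1.92 CPM in Acta2-low cells. Gucy1b1, a subunit of the nitric oxide receptor, stood at 72.7 CPM in Acta2-high and 7.22 CPM in Acta2-low cells, with a log2 ratio of 3.16 that was 2.49 without the deepest Acta2-high cell. Gucy1a1, of the same receptor, was measured and counted as neither. The phosphodiesterases Pde5a and Pde3a, which break down cyclic nucleotides, stood at 39.2 and 133 CPM in Acta2-high cells and at 12.1 and 60.7 CPM in Acta2-low cells. Kcnmb1, a subunit of the calcium-activated potassium channel, had 9.02 CPM in Acta2-high and 0.359 CPM in Acta2-low cells, and Cacna1c, the pore of the L-type calcium channel, was lower at 1.97 CPM in Acta2-high and 5.58 CPM in Acta2-low cells.

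Of 10 measured Notch genes 4 were higher and 0 lower, and against the 5 Acta2-low cells under 1 CPM of Acta2, 7, where 25.6% of all genes were higher. Heyl, a Notch target of mural cells, ran from 0 over a median of 22.9 to 411 CPM in Acta2-high cells, against 0, 0 and 127 CPM in Acta2-low cells. It had at least 5 counts in 18 Acta2-high and 3 Acta2-low cells, and its log2 ratio of 3.35 was 2.55 without the deepest Acta2-high cell. Jag1, a ligand, had at least 5 counts in 21 Acta2-high and 12 Acta2-low cells and summed levels of 122 CPM in Acta2-high and 24.4 CPM in Acta2-low cells. Hey2, another target, stood at 42.2 CPM in Acta2-high and 1.40 CPM in Acta2-low cells, and Nrarp, a feedback inhibitor, at 12.6 CPM in Acta2-high and 0.0267 CPM in Acta2-low cells with at least 5 counts in 5 Acta2-high and 0 Acta2-low cells. Endothelial markers were looked at beside this group. At least 5 counts of at least 3 endothelial markers were present in 4 Acta2-high and 1 Acta2-low cells. Of 7 endothelial markers measured 2 were higher (28.6%, against 6.80% of all genes) and 0 lower. They were Flt1 (23.9 CPM in Acta2-high and 0.1785 CPM in Acta2-low cells, with 74.52% of the Acta2-high counts in 1 cell) and Esam (6.71 CPM in Acta2-high and 0 CPM in Acta2-low cells). Esam had at least 5 counts in 6.06% of Acta2-high cells. Emcn, Egfl7, Erg, Pecam1 and Kdr were counted as neither. Kdr stood at 32.3 CPM in Acta2-high and 1.86 CPM in Acta2-low cells, and Cldn5 and Sox17 were at 0 in both classes. The summed level of the 12 markers ran from 892 to 7902 CPM with a median of 4527 in Acta2-high cells and from 226 to 9903 CPM with a median of 4615 in Acta2-low cells, most of it Pecam1, which was left out when cells were marked. Without the cells that held markers of another type, Jag1 had a log2 ratio of 1.59, Hey2 3.66 and Heyl 2.41, all still higher, and Nrarp 1.71, no longer so with equal weights.

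**Figure D3:**
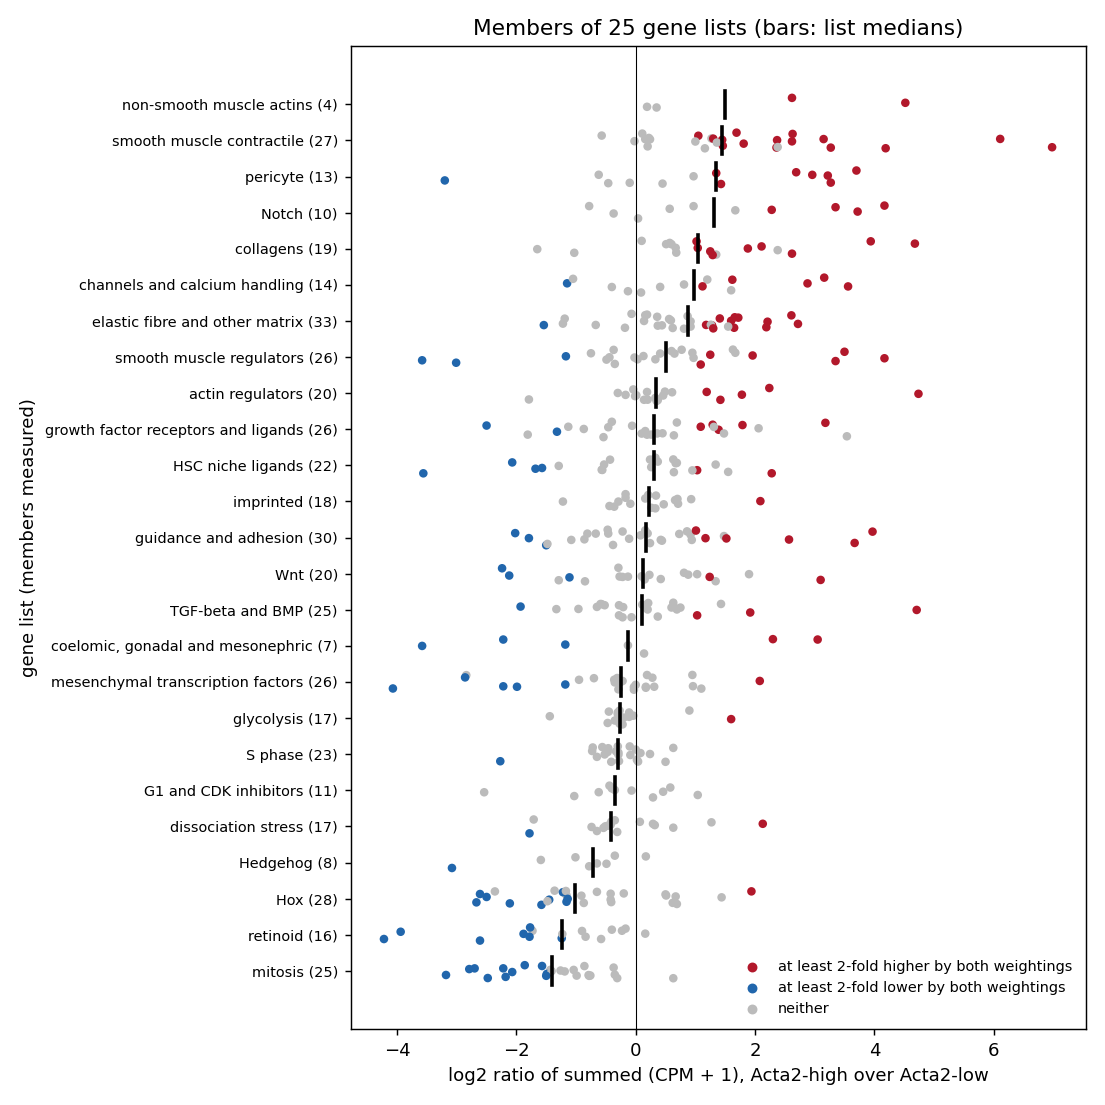
Log2 ratios of summed CPM + 1, Acta2-high over Acta2-low, for measured members of 25 gene lists; red and blue points were at least 2-fold higher or lower by both weightings, grey points neither, and bars are list medians. The contractile, pericyte, Notch and collagen lists have medians between 1.04 and 1.45, and the Hox, retinoid and mitosis lists between -1.02 and -1.41.

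Matrix genes formed a further group with higher members. Of 19 measured collagens 9 were higher and 0 lower, but 3 among wells of balanced i5 index, where 9.52% of all genes were higher. Col4a1 and Col4a2, the chains of the basement membrane that ensheaths vessels, had medians of 267 and 138 CPM in Acta2-high cells, against 5.50 and 15.8 CPM in Acta2-low cells, with log2 ratios of 2.11 and 1.88. Col12a1, which links collagen fibrils, had medians of 292 CPM in Acta2-high and 2.02 CPM in Acta2-low cells, and its log2 ratio of 1.29 was 3.0 without the deepest Acta2-low cell, which held 75.5% of the counts of its class. Col3a1 was broad, at 1308 CPM in Acta2-high and 548 CPM in Acta2-low cells. Among 33 other matrix genes 12 were higher and 1 lower, and genes of the elastic fibre stood among them. Fbln5 (fibulin-5), which assembles elastin, had medians of 250 CPM in Acta2-high and 4.08 CPM in Acta2-low cells and at least 5 counts in 27 Acta2-high and 15 Acta2-low cells. Fbn1, the core of the microfibril, stood at 197 CPM in Acta2-high and 41.8 CPM in Acta2-low cells, Loxl1, an elastin cross-linker, at 124 CPM in Acta2-high and 38.55 CPM in Acta2-low cells, and Ltbp4, which links microfibrils to elastin, at 39.3 CPM in Acta2-high and 5.60 CPM in Acta2-low cells. Eln (elastin) itself was low, at 14.8 CPM in Acta2-high and 2.46 CPM in Acta2-low cells, with 71.05% of the Acta2-high counts in 1 cell. Fn1 (fibronectin) was present in every cell, with medians of 1070 CPM in Acta2-high and 437 CPM in Acta2-low cells, and Hapln1, a hyaluronan link protein, was lower at 21.4 CPM in Acta2-high and 63.9 CPM in Acta2-low cells. The log2 ratio of Hapln1, -1.54, was 0.69 among wells of balanced i5 index. Of 30 measured guidance and adhesion genes 6 were higher and 3 lower, among them the integrin chain Itga1 (38.3 CPM in Acta2-high and 5.63 CPM in Acta2-low cells), Sema3c (52.5 CPM in Acta2-high and 3.21 CPM in Acta2-low cells) and, lower, the Slit receptor Robo2 (5.90 CPM in Acta2-high and 27.04 CPM in Acta2-low cells).

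The angiopoietins ran in opposite directions. Angpt2 (chromosome 8, 18690263 to 18741562, minus strand), a context-dependent antagonist of the endothelial receptor Tek, ran from 0 over a median of 69.9 to 1152 CPM in Acta2-high cells, against 0, 0 and 206.5 CPM in Acta2-low cells. It had at least 5 counts in 21 Acta2-high and 6 Acta2-low cells and summed levels of 164 CPM in Acta2-high and 6.31 CPM in Acta2-low cells. Angpt1 (chromosome 15, 42424723 to 42676977, minus strand), the agonist of the same receptor, ran from 0 over a median of 0 to 274 CPM in Acta2-high cells, against 0, 19.99 and 1182 CPM in Acta2-low cells. It had at least 5 counts in 3 Acta2-high and 19 Acta2-low cells, summed levels of 7.66 CPM (6.64 to 8.78) in Acta2-high and 101 CPM (97.6 to 104) in Acta2-low cells, and a log2 ratio of -3.56. Angpt1 is also a ligand of the stem cell niche. Among 22 measured niche ligands 2 were higher, Jag1 and Tgfb2, and 4 lower, Angpt1, Ptn, Kitl and Spp1. These were 9.09% and 18.2%, against 6.80% and 7.01% of all genes. Spp1 had at least 5 counts in 0.0% of Acta2-high and 2.56% of Acta2-low cells. The count of lower ligands was 2 among wells of balanced i5 index, where 11.2% of all genes were lower, and 2 without the cells that held markers of another type. Ptn (pleiotrophin), a growth factor for haematopoietic stem cells, had medians of 180 CPM in Acta2-high and 1070 CPM in Acta2-low cells and summed levels of 433 CPM in Acta2-high and 1388 CPM in Acta2-low cells. Kitl (stem cell factor) was sparse, at 1.26 CPM in Acta2-high and 5.71 CPM in Acta2-low cells with at least 5 counts in 2 Acta2-high and 8 Acta2-low cells. Its log2 ratio of -1.57 was 0.44 among wells of balanced i5 index. Cxcl12, the chemokine that retains stem cells, was shared: it had at least 5 counts in all 33 Acta2-high and all 39 Acta2-low cells, summed levels of 1450 CPM in Acta2-high and 1125 CPM in Acta2-low cells and a log2 ratio of 0.37. Ackr3, the scavenging receptor of Cxcl12, was lower, at 20.97 CPM in Acta2-high and 104 CPM in Acta2-low cells.

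Of 16 measured retinoid genes, of metabolism, binding proteins and nuclear receptors, 7 were lower in Acta2-high cells and 0 higher, with a median log2 ratio of -1.23. Against the 5 Acta2-low cells under 1 CPM of Acta2, 4 of 14 were lower and 2 higher, where 9.44% of all genes were lower and 25.6% higher. Crabp2 (chromosome 3, 87948666 to 87953376, plus strand), which carries retinoic acid to its nuclear receptors, ran from 0 over a median of 12.1 to 475 CPM in Acta2-high cells, against 0, 117 and 557 CPM in Acta2-low cells. It had at least 5 counts in 17 Acta2-high and 38 Acta2-low cells, and 37 Acta2-low cells lay above the Acta2-high median. Dhrs3, which turns retinal back to retinol, had at least 5 counts in 8 Acta2-high and 24 Acta2-low cells and a log2 ratio of -2.61. Aldh1a2, which makes retinoic acid, stood at 42.3 CPM in Acta2-high and 159 CPM in Acta2-low cells, and Rdh10, which makes retinal, at 25.2 CPM in Acta2-high and 60.7 CPM in Acta2-low cells, with a log2 ratio of -1.24 that was -1.88 without the deepest Acta2-high cell. Stra6 (the retinol importer) and Adh1 were lower as well, and Adh1 had a log2 ratio of -3.94 that was -2.50 without the deepest Acta2-low cell. The seventh, Cyp26a1, rested on 1 Acta2-low cell with 99.5% of the counts.

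Hox genes, which pattern the body axis, had lower members as well. Of 28 measured Hox genes 1 was higher and 9 lower, with a median log2 ratio of -1.02. The lower ones numbered 14 by summed counts alone and 3 with a pseudocount of 10 CPM, where 16.1% and 1.29% of all genes were lower. Hoxa9 had at least 5 counts in 7 Acta2-high and 22 Acta2-low cells and summed levels of 8.47 CPM in Acta2-high and 52.5 CPM in Acta2-low cells, and Hoxd9 had at least 5 counts in 3 Acta2-high and 15 Acta2-low cells and levels of 2.02 CPM in Acta2-high and 18.2 CPM in Acta2-low cells. Hoxb7, Hoxa10, Hoxc9 and Hoxd11 were also lower, and Hoxb8 was higher at 5.86 CPM in Acta2-high and 0.786 CPM in Acta2-low cells. Among 26 other mesenchymal transcription factors 1 was higher and 5 lower. Wt1, a factor of coelomic mesothelium, had at least 5 counts in 5 Acta2-high and 13 Acta2-low cells, and Sox9, a factor of cartilage and gonad, had medians of 5.83 CPM in Acta2-high and 35.5 CPM in Acta2-low cells. The count of lower factors was 2 without the wells that share an index with the cell of most Acta2 counts.

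Of 25 measured mitosis genes 11 were lower and 0 higher in Acta2-high cells, with a median log2 ratio of -1.41. Ube2c (chromosome 2, 164769898 to 164778822, plus strand), the ubiquitin-conjugating enzyme of the anaphase-promoting complex, ran from 0 over a median of 4.90 to 353 CPM in Acta2-high cells, against 0, 30.1 and 3130 CPM in Acta2-low cells. It had at least 5 counts in 12 Acta2-high and 21 Acta2-low cells and a log2 ratio of -2.70. Ccnb1, a mitotic cyclin, stood at 52.6 CPM in Acta2-high and 484 CPM in Acta2-low cells, and its log2 ratio of -3.18 was -2.07 without the deepest Acta2-low cell. Aurka, a spindle kinase, stood at 17.55 CPM in Acta2-high and 128 CPM in Acta2-low cells. Cdc20 had a log2 ratio of -1.57 that was -2.38 without the deepest Acta2-high cell. These sums rested on few cells. At least 10 mitosis genes had at least 5 counts in 8 of 33 Acta2-high cells (24.2%, exact limits 11.1 to 42.3) and in 15 of 39 Acta2-low cells (38.5%, 23.4 to 55.4), and these limits overlap. Without those cells 2 of 17 were lower (7.84% of all genes), and among wells of balanced i5 index 20 of 25 (11.2% of all genes). Against the 5 Acta2-low cells under 1 CPM of Acta2, 18 were higher and 0 lower, where 25.6% of all genes were higher. The S phase list gave 1 lower and 0 higher of 23, and 3 lower without the deepest Acta2-low cell.

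Upstream sequences of Ube2c (chr2:164769679-164769928, plus strand) and Cdc20 (chr4:118437344-118437593, minus strand), an activator of the same complex, are shown as before, because both hold the CHR element of cell cycle genes before their RefSeq start. For Ube2c that start and the element lie inside the GENCODE position given above. Capitals mark the CHR element TTTGAA, on the other strand (TTCAAA) in Ube2c, from 29 and 18 bases before the start.
Ube2c: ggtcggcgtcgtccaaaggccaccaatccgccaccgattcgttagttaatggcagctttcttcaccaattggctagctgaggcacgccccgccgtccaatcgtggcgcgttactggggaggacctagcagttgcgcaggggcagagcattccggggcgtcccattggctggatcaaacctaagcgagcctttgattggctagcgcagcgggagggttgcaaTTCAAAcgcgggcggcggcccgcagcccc
Cdc20: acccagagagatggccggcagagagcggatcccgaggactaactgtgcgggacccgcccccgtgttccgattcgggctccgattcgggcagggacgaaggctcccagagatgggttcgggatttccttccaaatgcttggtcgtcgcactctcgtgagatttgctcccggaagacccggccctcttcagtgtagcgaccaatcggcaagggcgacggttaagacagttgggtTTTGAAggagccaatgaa
The element occurred in 16 of the 22 measured mitosis genes that had a window, against 20.2% of genes, and in 10 of the 11 that were lower, a description chosen after the values had been seen.

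**Figure D4:**
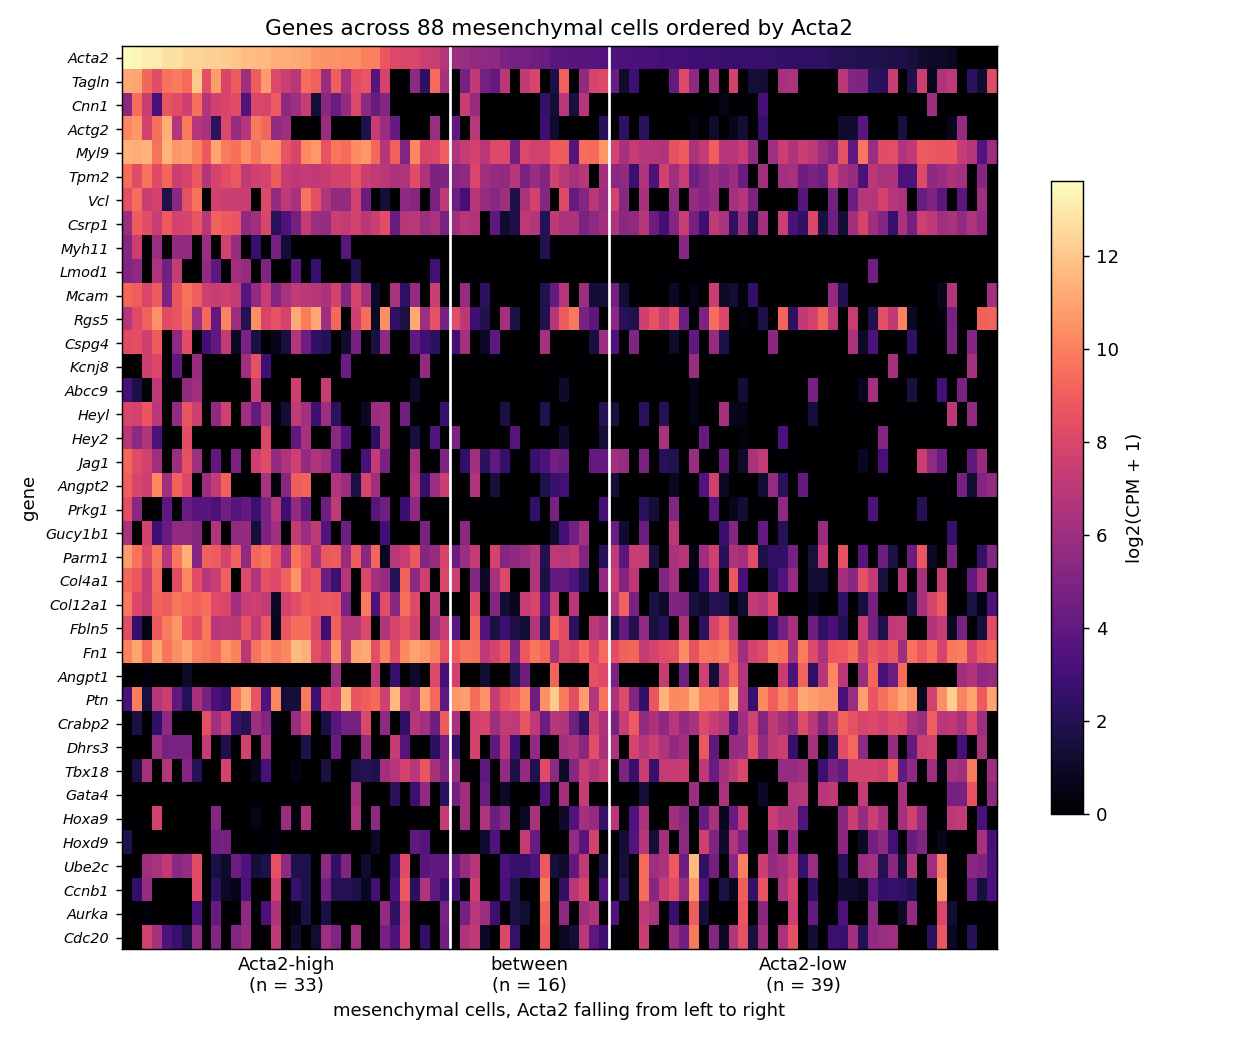
Log2(CPM + 1) of 38 genes in the 88 mesenchymal cells, ordered by falling Acta2 from left to right; white lines divide the 33 Acta2-high, 16 intermediate and 39 Acta2-low cells. Contractile, pericyte and Notch genes are brightest at the left. Of the 7 Acta2-high cells nearest the line, under 1000 CPM, 6 have at least 5 counts of Tbx18 and 1 of Cnn1.

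The Acta2-high class held cells of different make-up. Of its 26 cells with at least 1000 CPM of Acta2, 22 had at least 5 counts of Cnn1, 18 of Actg2, 24 of Mcam and 16 of Heyl. In its 7 cells under 1000 CPM these genes had at least 5 counts in 1, 2, 3 and 2 cells, and in the 16 cells between the thresholds in 4, 1, 4 and 0. Tbx18 ran the other way, with at least 5 counts in 4 of the 26, 6 of the 7, 10 of the 16 and 27 of the 39 Acta2-low cells. Fbln5 and Fn1, of the matrix, were high in both bands of the Acta2-high class. Fbln5 had medians of 303 CPM in the 26 cells, 171 CPM in the 7 cells, 8.34 CPM in the 16 cells and 4.08 CPM in the 39 cells, and Fn1 had medians of 1065, 1094, 419 and 437 CPM in the same order. Within the 33 Acta2-high cells Acta2 ranked with Actg2 (rho 0.74), Tagln, Cnn1 and Mcam (0.66 each) but little with Rgs5 (0.16) or Hey2 (0.18), as a description over cells of 1 pool. Cnn1 and Actg2 were both present in 17 of the 33 cells, Cnn1 alone in 6 and Actg2 alone in 3.

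As a description that draws on the same Acta2 values as the classes, over all 88 mesenchymal cells the genes whose levels ranked most like Acta2, of 5637 compared, were Mcam and Tpm2 (rho 0.67 each), Parm1 (0.66), Myl9 (0.64), Tagln (0.58), Col12a1 (0.56), Sparc (0.52), Myadm and Myl6 (0.51 each) and Cdh11 (0.49). The median over all genes was 0, and Acta2 itself ranked with the cell's total at -0.07. Crabp2 (-0.49) ranked most opposite. Parm1, a membrane glycoprotein with no place in the lists, ran from 0.781 over a median of 413 to 2558 CPM in Acta2-high cells, against 0, 11.4 and 431 CPM in Acta2-low cells.

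A narrower rule asked for at least 5 counts in at least 40% of the cells of the higher class. It also asked for at least 2-fold by summed counts without either deepest cell. Of the genes counted as higher or lower, 141 higher and 111 lower ones met it. Equal weights were not asked for in this step, so some lose the call without a deepest cell, as given below. Besides those above, the 20 with the largest ratios higher in Acta2-high cells held Abi3bp, an extracellular matrix protein, with a log2 ratio of 4.51 that was 3.22 without the deepest Acta2-high cell. Further members were the filament-binding genes Pdlim1 (69.97 CPM in Acta2-high and 3.73 CPM in Acta2-low cells), Nexn (40.7 CPM in Acta2-high and 3.19 CPM in Acta2-low cells) and Cobl (34.8 CPM in Acta2-high and 2.47 CPM in Acta2-low cells), the transcription factor Myc (43.8 CPM in Acta2-high and 4.43 CPM in Acta2-low cells), Fstl3, which binds activin, Hif3a, Dusp3 and Kctd15. The 20 lower ones were led by Angpt1 and by Mme, the membrane peptidase neprilysin, which had at least 5 counts in 4 Acta2-high and 17 Acta2-low cells and stood at 6.28 CPM in Acta2-high and 79.6 CPM in Acta2-low cells. Tef, a clock-linked leucine zipper factor, had at least 5 counts in 2 Acta2-high and 17 Acta2-low cells. Plpp3, a lipid phosphatase, stood at 13.01 CPM in Acta2-high and 61.7 CPM in Acta2-low cells, and Colec12, a scavenger receptor, at 10.4 CPM in Acta2-high and 68.4 CPM in Acta2-low cells. Bcorl1, Cgnl1, Unk, Arl6ip1, Elf2, Dcun1d4, Ip6k1, Col23a1, Gpt2, Fndc3c1 and Cog3 had log2 ratios between -2.74 for Bcorl1 and -2.18 for Cog3.

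Shares of positive cells were compared at equal depth, with each cell thinned to 200000 counts and 4 Acta2-high and 2 Acta2-low cells below that left out. Cnn1 then had at least 5 counts in 21 of 29 Acta2-high cells (72.4%, exact limits 52.8 to 87.3) and 1 of 37 Acta2-low cells (2.70%, 0.0684 to 14.2), against unthinned shares of 69.7% in Acta2-high and 5.13% in Acta2-low cells. For Actg2 the share was 62.1% (42.3 to 79.3) of Acta2-high cells, and 0 of 37 Acta2-low cells, which allows a share of up to 8.11% by 3 counts of the total (exact upper limit 9.49%); unthinned, it was 60.6% in Acta2-high and 7.69% in Acta2-low cells. Tagln stood at 89.7% (72.6 to 97.8) in Acta2-high and 35.1% (20.2 to 52.5) in Acta2-low cells, and Mcam at 82.8% (64.2 to 94.2) in Acta2-high and 13.5% (4.54 to 28.8) in Acta2-low cells. On the other side Crabp2 stood at 37.9% (20.7 to 57.7) in Acta2-high and 91.9% (78.1 to 98.3) in Acta2-low cells, and Angpt1 at 10.3% (2.19 to 27.4) in Acta2-high and 45.9% (29.5 to 63.1) in Acta2-low cells. The limits of these genes did not overlap, whereas those of Rgs5, Ube2c, Ccnb1 and Cdc20 did. This describes the cells of 1 pool and is not a test, and genes were named in part after their values had been seen.

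**Figure D5:**
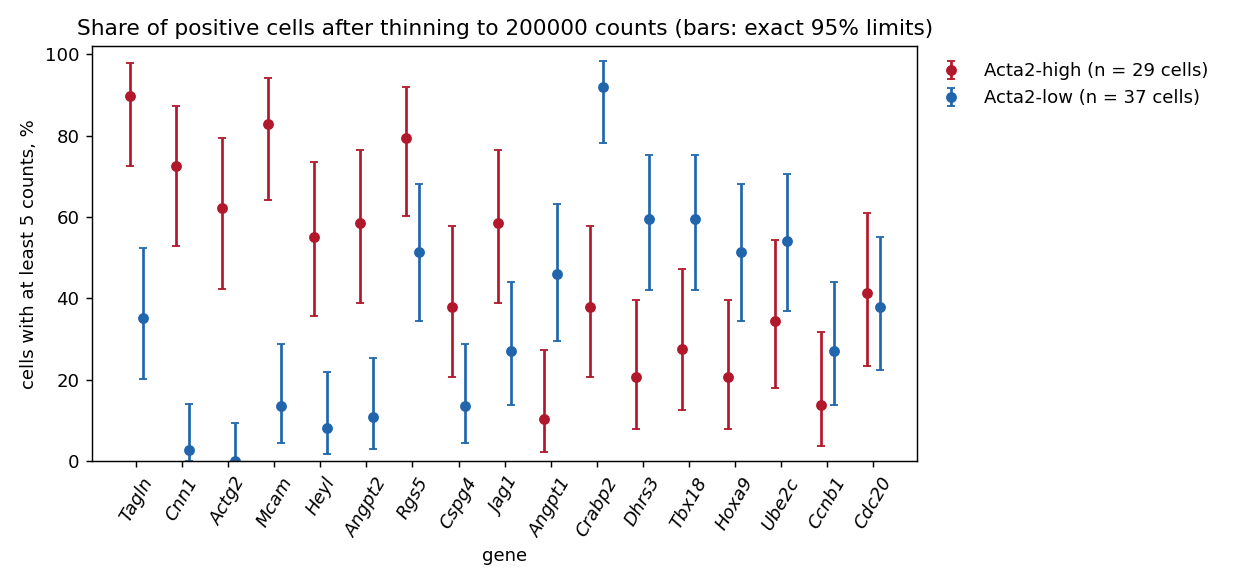
Percentage of cells with at least 5 counts after thinning to 200000 counts, in 29 Acta2-high (red, left) and 37 Acta2-low cells (blue, right), with exact 95% limits. Tagln, Cnn1, Actg2, Mcam, Heyl and Angpt2 lie higher in Acta2-high cells and Angpt1, Crabp2 and Dhrs3 lower, with limits apart; for Ube2c, Ccnb1 and Cdc20 they overlap.

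In the remaining lists, of 25 measured TGF-beta and BMP genes 3 were higher and 1 lower, of 20 Wnt genes 2 and 3 (1 and 1 of 19 without the deepest Acta2-high cell), of 8 Hedgehog genes 0 and 1, of 26 growth factors and receptors 5 and 2, of 18 imprinted genes 1 and 0, of 11 genes of G1 and CDK inhibitors 0 and 0, of 17 glycolysis genes 1 and 0, of 17 dissociation stress genes 1 and 1, and of 7 coelomic, gonadal and mesonephric genes 2 (Krt8 and Krt18) and 3 (Wt1, Gata4 and Lhx9). In the last list this was 28.6% higher and 42.9% lower of 7 genes, and among the growth factors and receptors 19.2% higher and 7.69% lower. Tgfb2, a ligand, had medians of 167 CPM in Acta2-high and 23.7 CPM in Acta2-low cells, and Ror1, a Wnt receptor, medians of 154 CPM in Acta2-high and 21.4 CPM in Acta2-low cells. Marker sets of other cell types had few measured members. Their transcripts were not absent: the epithelial set had median sums of 190.1 CPM in Acta2-high and 231.6 CPM in Acta2-low cells. Its higher members Krt8 and Krt18 had at least 5 counts in 9.09% and 15.2% of Acta2-high cells. Members higher and lower were 1 and 0 of 3 measured haematopoietic, 0 and 0 of 1 macrophage, 0 and 0 of 1 erythroid, 2 and 0 of 3 neural crest, 1 and 2 of 5 neuronal, 2 and 0 of 4 epithelial, 0 and 1 of 1 mesothelial, 0 and 2 of 2 steroidogenic, 0 and 0 of 1 skeletal muscle, 0 and 0 of 1 cardiac and 0 and 2 of 4 chondrogenic markers. The smooth muscle, pericyte and fibroblast sets gave 6 of 7, 5 of 6 and 2 of 6 higher and 0 lower. Each of the haematopoietic, macrophage, neural crest, neuronal and epithelial sets reached 3 markers in 0 Acta2-high cells, and the neuronal set did so in 1 Acta2-low cell.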

How the data were processed

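The authors deposited estimated counts per gene and cell and a log2 table of the same cells. Kallisto 0.43.1 and build GRCm38 are named per the submitters' processing notes; other settings are not given in the sources used here. In the log2 table the authors deposited, 100% of values above 0 lay within 0.1% of counts scaled by 1 factor per cell. Of 14109 entries, 13448 have a symbol and were used; the other 661 held 2.96% of mesenchymal counts. CPM, ratios with a pseudocount of 1 CPM, exact Poisson limits of class sums and exact Clopper-Pearson limits of shares were computed in Python 3.11.15 with numpy 2.4.6, pandas 2.3.3, scipy 1.17.1 and matplotlib 3.10.9. The ratios and the rule for higher and lower genes were tested on simulated counts. Estimated counts were not rounded, except where cells were thinned, which took whole counts. Single cells were sorted to wells, so no doublet caller was run. No 2 mesenchymal cells correlated above 0.587. All 88 index pairs were also used in other pools. Members of the 25 lists and 15 marker sets were named in part after their values had been seen. Besides these, the text names the 20 largest ratios per direction among genes past the rule given above, leaving out sort genes, mitochondrial genes, pseudogenes and unnamed loci. One gene that met this rule is not reported here. Gene positions are from GENCODE on GRCm38. The members and lists were chosen with earlier results of these data known. Alternatives changed thresholds, weighting, pseudocount, filter, totals, depth and the cells kept.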

Additional observations from a re-analysis of the deposited data

Results flagged for a closer look

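Acta2 also reached 100 CPM in cells outside the mesenchymal pool, which the comparison does not use. Among the 65 HSC-sorted cells 8 did so, at 107.8 to 479.4 CPM, and of these 2 had at least 5 counts of Tagln and 0 of Cnn1. Among the 89 Ventral-sorted cells 4 did so, at 101.0 to 2307 CPM, and of these 2 had at least 5 counts of Tagln, 0 of Cnn1 and 1 of Actg2. Of the 93 Dorsal-sorted cells 0 reached 100 CPM, with a highest value of 54.71 CPM.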

How the results depend on the processing

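Across 18 alternatives, 88 higher and 56 lower genes, those named by the rule or in the text, gave 2592 values, of which 2287 kept the call, 279 lost it with the direction kept and 26 reversed. Contractile genes higher numbered between 11 and 20. Genes higher and lower over all numbered 1472 and 1833 by summed counts alone, 206 and 147 with a pseudocount of 10 CPM, and 425 and 428 with at least 500 counts. With only the 5 Acta2-low cells under 1 CPM, 2641 were higher and 976 lower, and reversed log2 ratios were 0.62 for Arl6ip1, 3.41 for Aurka, 2.66 for Bub1b, 3.89 for Ccnb1, 0.05 for Cyp26a1, 2.0 for Dkk2, 1.93 for Fgfr3, 1.08 for Gdf10, 2.16 for Gpt2, 1.12 for Lef1, 1.57 for Pax9, 2.57 for Ube2c, 1.06 for Cacna1c, 5.08 for Cdc20, 0.94 for Kitl and 2.43 for Sox9. Without the deepest Acta2-high cell 81 of the 88 higher and 53 of the 56 lower genes stayed counted. Those lost included Tpm1, Cacna1c, Cdh11, Col3a1, Hoxb8 and Dcun1d4. Without the deepest Acta2-low cell 84 higher and 51 lower genes stayed counted. Those lost then included Arl6ip1, Cgnl1, Dcun1d4, Gpt2, Ip6k1, Myocd, Pde3a and Ror1. Without the wells that share an index with the cell of most Acta2 counts, Klf4 stood at -0.03. The next alternatives were chosen after seeing the data. Among i5 indices with at least 3 cells of each class, Klf4 stood at -0.98, Msx2 at -0.90, Hapln1 at 0.69 and Kitl at 0.44. Without dividing cells Arl6ip1 stood at 0.04, Ccnb1 at 0.17, Cyp26a1 at 0.09, Lef1 at 0.33 and Wnt2 at -0.30. The causes were not tested. No paired analysis was possible because the cells are 1 pool and no test was run. With 1 sample and no animal named, cells of 1 embryo cannot be told apart from those of another, and low genes are limited by the depth of single cells.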
